A study of Mus musculus with 12 samples.

Results

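Heat shock and chaperone genes were examined in proximal colon RNA of 12 mice as 10 genes taken by symbol: *Hspa1a*, *Hspa1b*, *Hspa8*, *Hsp90aa1*, *Hsp90ab1*, *Hspb1*, *Dnajb1*, *Hspa5*, *Hsp90b1* and *Ddit3*. The Ensembl identifiers of the 12 count tables were mapped to mouse symbols, and all 10 genes were found among the 38924 genes listed. All 10 also passed the filter on low counts, which left 20311 genes for testing. The rule names the genes and sets no threshold on a measured value.

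The RNA came from 6 APC Min/+ mice, which carry 1 mutated copy of the tumour suppressor *Apc* in every cell, and from 6 WT mice with 2 normal copies. All 12 mice were C57BL/6 females, 6 weeks old, and the labels list no treatment. The intestines were free of adenomas when inspected. The Min allele is inherited through the germline, so that it is present in epithelium, muscle and blood cells alike. The genotypes were housed apart and arrived in several shipments that the labels do not tie to mice, so that genotype and cage cannot be told apart.

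Heat shock proteins are chaperones, which bind unfolded or newly made proteins and help them fold, or hand them on for degradation. In the cytosol, Hsp70 proteins bind exposed stretches of a client protein in a cycle driven by ATP and started by J-domain partners such as *Dnajb1*, and Hsp90 proteins take over late folding steps of kinases and steroid receptors. Some of these genes are made at a steady rate in every cell and others are induced by heat and other stresses through the transcription factor Hsf1. In the endoplasmic reticulum (ER), where secreted proteins such as mucins and antibodies fold, *Hspa5* (BiP) and *Hsp90b1* (Grp94) have the corresponding roles and are raised by the unfolded protein response. The colon epithelium secretes mucus and the plasma cells beneath it secrete IgA, so that both compartments carry a high folding load.

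The promoters show how these genes differ in the elements next to their start sites. RefSeq promoters of the GRCm38.p6 assembly, which run from 250 bases before to 50 bases after a start site, were found for 7 of the 10 genes, as 8 entries, among 32817 promoters. Each was searched on both strands for 2 facing heat shock units, written GAANNTTC, for the tail-to-tail form TTCNNGAA, for 3 units, which add any 2 bases and GAA to the first form, and for the ER stress response element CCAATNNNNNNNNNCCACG. The form of 3 units contains both others, and N stands for any base. The 2 inducible Hsp70 genes lie next to each other on the minus strand of chromosome 17, and both promoters hold GAANNTTC 104 bases before the start site. They are printed whole because 296 of their 300 bases are identical, with *Hspa1a* from chr17:34972107-34972406 and *Hspa1b* from chr17:34959189-34959488, and with the match in capitals.
Hspa1a: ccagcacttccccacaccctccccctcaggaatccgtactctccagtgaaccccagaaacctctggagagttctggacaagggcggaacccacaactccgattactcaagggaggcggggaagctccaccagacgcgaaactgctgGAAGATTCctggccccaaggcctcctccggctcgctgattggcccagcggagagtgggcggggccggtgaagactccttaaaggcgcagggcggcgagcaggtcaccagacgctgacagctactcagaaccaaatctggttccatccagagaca
Hspa1b: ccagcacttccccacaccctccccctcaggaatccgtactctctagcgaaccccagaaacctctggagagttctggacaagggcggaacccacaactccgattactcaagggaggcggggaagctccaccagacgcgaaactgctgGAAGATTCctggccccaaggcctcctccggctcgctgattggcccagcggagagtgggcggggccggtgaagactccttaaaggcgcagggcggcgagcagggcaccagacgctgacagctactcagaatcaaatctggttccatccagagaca

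The promoter of *Hspb1*, on the plus strand of chromosome 5, holds the same letters in 2 places, 117 and 97 bases before the start site. The stretch shown is chr5:135887782-135887849, with both matches in capitals.
Hspb1: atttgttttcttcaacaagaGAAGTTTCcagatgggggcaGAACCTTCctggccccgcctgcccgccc

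The 2 ER chaperones hold the other element. *Hspa5*, on the plus strand of chromosome 2, has 1 match that begins 65 bases before its start site (chr2:34772005-34772063), and *Hsp90b1*, on the minus strand of chromosome 10, has 2 matches that begin 212 and 107 bases before it (chr10:86705523-86705666). The second match of *Hsp90b1* is on the opposite strand and therefore appears in the capitals as the reverse complement of the element.
Hspa5: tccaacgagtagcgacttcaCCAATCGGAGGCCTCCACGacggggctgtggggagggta
Hsp90b1: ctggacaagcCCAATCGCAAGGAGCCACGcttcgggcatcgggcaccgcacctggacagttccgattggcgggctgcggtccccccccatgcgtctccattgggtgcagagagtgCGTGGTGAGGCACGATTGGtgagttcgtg

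GAANNTTC was present in 7.86% of all promoters of this length, TTCNNGAA in 8.51%, the form of 3 units in 0.603% and the ER stress response element in 0.119%, or 39 promoters. None of the 8 promoter entries held the tail-to-tail form or the form of 3 units, and the entries of *Dnajb1* and *Ddit3* held none of the 4 patterns. A match describes letters in this window and does not show that a factor binds there.

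The 10 genes spanned a wide range of abundance. Levels between genes were compared as RPKM, which divides the counts by library size and gene length. The length was the exonic length deposited with the counts, which can differ from that of the longest coding transcript. It was 1713 against 890 bases for *Ddit3* and 2263 against 2996 bases for *Dnajb1*, so that the order of genes at close levels depends on this choice. *Hspa8*, the constitutive Hsp70 of the cytosol, stood first with a mean of 319.6 ± 54.3 RPKM (SD, n = 12), and *Hsp90ab1*, the constitutive Hsp90, followed with 258.4 ± 30.5 RPKM. Next came *Hspa5* with 129.6 ± 18.5 RPKM and *Hsp90b1* with 122.2 ± 17.6 RPKM, which differed by less than their SD. *Hsp90aa1*, the inducible Hsp90, had 63.7 ± 10.7 RPKM. The small heat shock protein gene *Hspb1* had 22.6 ± 6.66 RPKM and the J-domain gene *Dnajb1* 21.8 ± 1.82 RPKM, again a difference smaller than their SD. *Ddit3*, which encodes the stress transcription factor Chop, had 9.95 ± 2.20 RPKM. The inducible Hsp70 genes were last, with 8.09 ± 5.61 RPKM for *Hspa1b* and 4.33 ± 4.75 RPKM for *Hspa1a*. These last 3 neighbours in the order also differed by less than the larger of their SDs, although *Hspa1b* was above *Hspa1a* in each of the 12 mice.

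**Figure D1:**
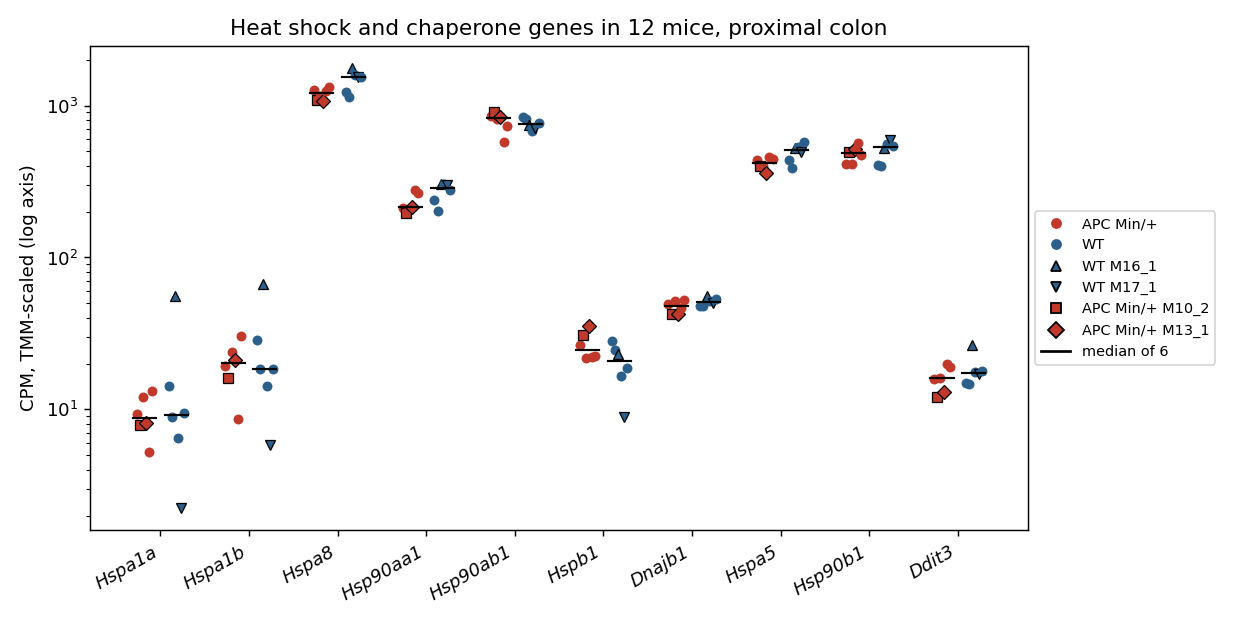
CPM values (log axis, counts scaled to library size with TMM factors) of the 10 genes, with 1 point per mouse, APC Min/+ in red and WT in blue and a line at the median of 6 mice. WT mouse M16_1 (upward triangle) stands at 56.1 CPM for *Hspa1a* and 67.2 CPM for *Hspa1b*, above the other 11 mice, and WT mouse M17_1 (downward triangle) stands lowest for both.

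Total counts on genes lay between 50313805 and 197914821 per mouse, so that 3 counts corresponded to between 0.0152 and 0.0596 CPM, far below the level of any of the 10 genes. APC Min/+ mice M10_2 and M13_1 stood apart from the others. The summed CPM of 4 genes of the distal colon was 2758 and 2609 in them and no more than 4.66 in the WT mice. The sum of 8 epithelial markers was 10006 and 11126, against 22280 or more in the WT mice and up to 36808 in the APC Min/+ mice (M2_A). Goblet cells are epithelial too, and the sum of 6 goblet cell markers was not low in them. It was 17077 in M10_2, the highest of all mice, and 9820 in M13_1, inside the WT range of 8831 to 16877. The labels name the tissue mucosa. Epithelial markers were present in every mouse, and so were 6 markers of smooth muscle, with sums between 4391 and 6959 CPM. These sums do not tell whether the muscle lay inside or outside the mucosa. In such bulk RNA, fewer cells of a type, less RNA per cell and a different stretch of colon cannot be told apart.

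The inducible cytosolic Hsp70 genes varied most. *Hspa1a* (ENSMUSG00000091971.2, chromosome 17, 34969190 to 34972156) had a lowest value of 5.22, a median of 8.75 and a highest value of 13.3 CPM in the APC Min/+ mice, and 2.24, 9.19 and 56.1 CPM in the WT mice. The medians were close and the APC Min/+ range lay inside the WT range. The highest and the lowest WT value belonged to M16_1 and M17_1, and the next highest mouse, WT M17_2, had 14.3 CPM. *Hspa1b* (ENSMUSG00000090877.2, chromosome 17, 34956436 to 34959238) had 8.69, 20.11 and 30.3 CPM in the APC Min/+ mice and 5.87, 18.5 and 67.2 CPM in the WT mice, with the same 2 mice at the ends. The log2 fold change of APC Min/+ over WT was -0.80 (SE 0.59) for *Hspa1a* and -0.36 (SE 0.46) for *Hspa1b*, with Benjamini-Hochberg FDR = 0.909 and 0.911 in the edgeR quasi-likelihood fit. Both values turned positive when M16_1 was left out, to 0.18 (SE 0.39) and 0.22 (SE 0.38), so that 1 WT mouse set their direction.

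The 2 genes encode nearly the same protein and were also added together. The sum lay between 13.9 and 43.6 CPM in the APC Min/+ mice, with a median of 28.9 CPM, and between 8.11 and 123.4 CPM in the WT mice, with a median of 27.7 CPM. *Hspa1a* made up between 27.6 and 37.5% of the sum in 11 mice and 45.5% in M16_1. M16_1 also had the highest summed level of 6 leukocyte markers, 331.5 CPM, and of 4 erythroid markers, 224.9 CPM, where the largest APC Min/+ sums were 315.2 and 117.3 CPM. The part of these cells in the *Hspa1a* value was not tested.

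*Hspb1* and *Dnajb1* are also known targets of Hsf1. Their spread between mice differed, with *Hspb1* the wider. *Hspb1* (ENSMUSG00000004951.10, chromosome 5, 135887919 to 135889563), the small heat shock protein Hsp25, which holds unfolded proteins and binds actin filaments, had 21.7, 24.5 and 35.5 CPM as its lowest, median and highest value in the APC Min/+ mice and 8.94, 20.9 and 28.1 CPM in the WT mice. All 6 APC Min/+ mice were above the WT median and 3 WT mice were below all APC Min/+ mice, but the ranges overlapped. M13_1 and M10_2 were the 2 highest mice and M17_1 was the lowest. The log2 fold change was 0.41 (SE 0.23, FDR = 0.908 in the edgeR quasi-likelihood fit), and it was 0.22 (SE 0.25) without M10_2 and M13_1 and 0.25 (SE 0.17) without M17_1. *Dnajb1* (ENSMUSG00000005483.9, chromosome 8, 83608193 to 83612653), which starts the ATP cycle of Hsp70, was the steadiest of the 10 genes. It had 42.3, 47.9 and 52.6 CPM in the APC Min/+ mice and 47.8, 50.9 and 56.0 CPM in the WT mice, with 3 APC Min/+ mice below all WT mice. Its log2 fold change was -0.11 (SE 0.08, FDR = 0.910 in the same edgeR fit), and 0.0027 when M10_2, M13_1 and M16_1 were all left out.

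Of the 10 genes, *Hspa8* had the lowest unadjusted p between genotypes, and it did not pass the adjusted threshold. *Hspa8* (ENSMUSG00000015656.10, chromosome 9, 40800984 to 40810087), or Hsc70, folds new proteins, uncoats clathrin vesicles and carries proteins to the lysosome. Its lowest, median and highest values were 1067, 1200.45 and 1329.6 CPM in the APC Min/+ mice and 1137, 1540.5 and 1767 CPM in the WT mice. All 6 APC Min/+ mice were below the WT median and 4 WT mice were above all APC Min/+ mice, while the WT mice M17_2 and M19_1 lay within the APC Min/+ range. The log2 fold change was -0.30 (SE 0.13), with an unadjusted p = 0.0338 and FDR = 0.908 in the edgeR quasi-likelihood fit. M13_1 and M10_2 were the 2 lowest mice, and without them the log2 fold change was -0.23 (unadjusted p = 0.114 in the edgeR fit).

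The log2 fold changes of the 2 cytosolic Hsp90 genes differed in sign, and neither passed the test. *Hsp90aa1* (ENSMUSG00000021270.7, chromosome 12, 110690605 to 110702728) had 196.9, 214.4 and 279.2 CPM in the APC Min/+ mice and 201.3, 288.1 and 303.0 CPM in the WT mice. All 6 APC Min/+ mice were below the WT median and M16_1 was highest, as with *Hspa8*, and M10_2 was lowest. Here the log2 fold change was -0.23 (SE 0.13, FDR = 0.908 in the edgeR quasi-likelihood fit). *Hsp90ab1* (ENSMUSG00000023944.8, chromosome 17, 45567775 to 45573271) had 576.6, 827.0 and 911.9 CPM in the APC Min/+ mice and 677.9, 756.9 and 836.9 CPM in the WT mice. Here M10_2 was the highest mouse and APC Min/+ mouse M2_A the lowest, so that the APC Min/+ range enclosed the WT range. The log2 fold change was 0.05 (SE 0.12, FDR = 0.937 in the same edgeR fit), and it was -0.025 without M10_2 and M13_1.

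The ER chaperones had ranges much like those of *Hspa8* and the cytosolic Hsp90 genes. The highest mouse exceeded the lowest 1.60-fold for *Hspa5* and 1.49-fold for *Hsp90b1*, and 1.66-fold for *Hspa8*, 1.54-fold for *Hsp90aa1* and 1.58-fold for *Hsp90ab1*. *Hspa5* (ENSMUSG00000026864.7, chromosome 2, 34771970 to 34777547), the Hsp70 of the ER, which also holds the stress sensors Ire1, Atf6 and Perk in their resting state, had 357.8, 421.6 and 460.7 CPM in the APC Min/+ mice and 387.1, 509.1 and 573.8 CPM in the WT mice. All 6 APC Min/+ mice were below the WT median and 4 WT mice were above all APC Min/+ mice. The WT mice M17_2 and M19_1 lay within the APC Min/+ range here too. The log2 fold change was -0.23 (SE 0.12), with an unadjusted p = 0.0640 and FDR = 0.908 in the edgeR quasi-likelihood fit. *Hsp90b1* (ENSMUSG00000020048.7, chromosome 10, 86690209 to 86705509), the ER Hsp90, which folds integrins and Toll-like receptors, had 409.5, 486.8 and 568.5 CPM in the APC Min/+ mice and 400.5, 536.5 and 595.4 CPM in the WT mice. The genotypes overlapped over nearly the whole range, and the log2 fold change of -0.07 (SE 0.13) was smaller than its SE.

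*Ddit3* is no chaperone. It encodes the transcription factor Chop, which is made when ER stress or amino acid shortage persists and which favours cell death. *Ddit3* (ENSMUSG00000025408.9, chromosome 10, 127290774 to 127296288) had 12.1, 15.98 and 19.9 CPM in the APC Min/+ mice and 14.8, 17.4 and 26.6 CPM in the WT mice. M16_1 was again the highest mouse, and the other 5 WT mice lay between 14.8 and 17.8 CPM, inside the APC Min/+ range. The log2 fold change of -0.18 (SE 0.17, FDR = 0.910 in the edgeR quasi-likelihood fit) was -0.03 when M16_1 was left out, -0.04 without M10_2 and M13_1, and 0.11 without all 3.

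**Figure D2:**
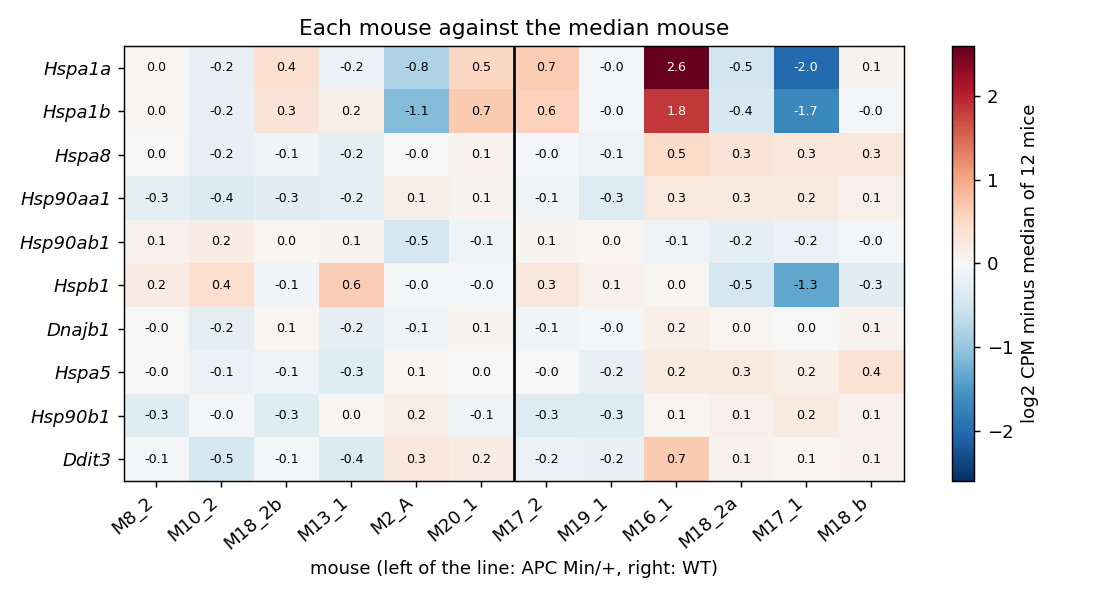
Log2 CPM of each gene (rows) in each mouse (columns, APC Min/+ left of the line and WT right of it), less the median of the 12 mice. The deepest colours are those of *Hspa1a* and *Hspa1b* in M16_1 and M17_1 and of *Hspb1* in M17_1, and the rows of *Hspa8*, *Dnajb1*, *Hspa5* and both Hsp90 genes of the cytosol stay pale.

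Over the 10 genes together, 0 were called at a 2-fold change and an FDR under 0.05 in the edgeR quasi-likelihood fit, as were 0 of all 20311 genes (0%). DESeq2 called 33 genes and edgeR's likelihood ratio test 15 genes by the same threshold. An unadjusted p under 0.05 was reached by 1 of the 10 genes, *Hspa8*, in the lower direction, beside 368 genes (1.81%) of all tested that were lower in APC Min/+ mice at this p and 703 (3.46%) that were higher. The genotypes did not overlap for 0 of the 10 genes and for 0.118% of all genes. How many of all genes had every APC Min/+ mouse on the same side of the WT median was not counted. The fold change was negative for 8 of the 10 genes and positive for 2, *Hspb1* and *Hsp90ab1*, with a median of -0.21 on the log2 scale. Of all 20311 genes, 10474 were negative, and their median was -0.0077 over all genes tested. The 10 genes share the mice, and 3 of the mice weighed on many of them, so that the count of negative values is a description. The 10 genes summed to 3228 ± 108 CPM (SD, n = 6) in the APC Min/+ group and to 3625 ± 379 CPM (SD, n = 6) in the WT group, and most of it came from *Hspa8* and *Hsp90ab1*.

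**Figure D3:**
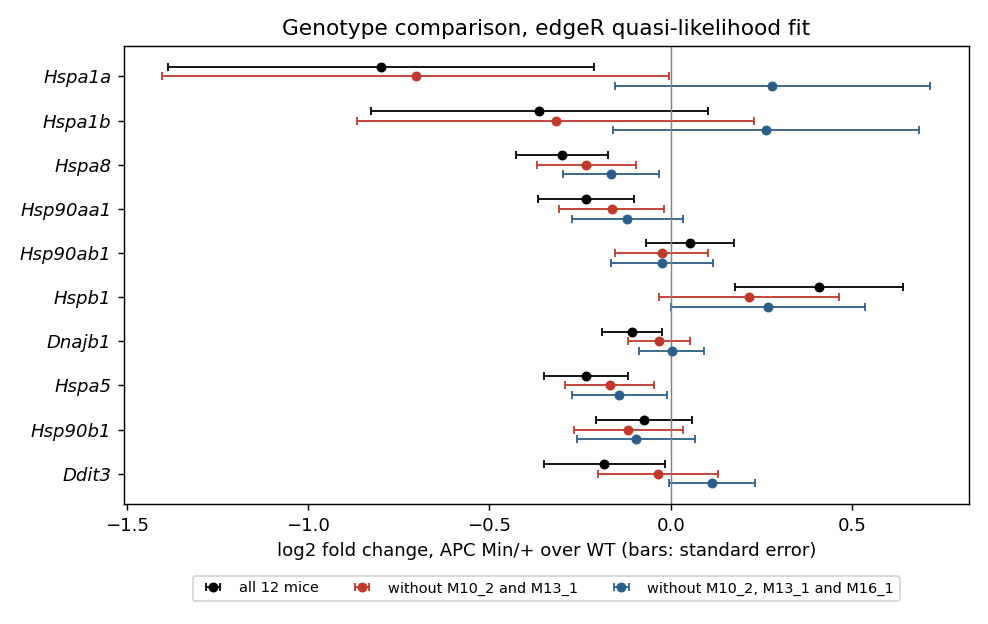
Log2 fold change of APC Min/+ over WT for the 10 genes in edgeR's quasi-likelihood fit, with bars of 1 standard error, for all 12 mice (black), without M10_2 and M13_1 (red) and without these and M16_1 (blue). *Hspa1a* moves from -0.80 to 0.28 and *Hspa1b* from -0.36 to 0.26 across the 3 fits, while *Hspa8*, *Hsp90aa1* and *Hspa5* stay negative and shrink.

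The spread between mice of the same genotype was widest for the inducible Hsp70 genes. The SD of log2 CPM within genotypes was 1.06 for *Hspa1a* and 0.90 for *Hspa1b*, at percentiles 98.2 and 97.3 of all genes tested. Among genes of a similar mean level the percentiles were 98.2 and 97.7. The highest mouse exceeded the lowest 25.1-fold for *Hspa1a* and 11.5-fold for *Hspa1b*. *Hspb1* came next with an SD of 0.45 (percentile 85.9) and a 3.97-fold range, then *Ddit3* with 0.29 (percentile 63.5). The SDs of *Hsp90aa1*, *Hsp90b1*, *Hspa8*, *Hsp90ab1* and *Hspa5* lay between 0.18 and 0.22, at percentiles 27.7 to 44.99. *Dnajb1* had an SD of 0.11, at percentile 7.17, and its highest mouse was 1.32-fold above the lowest. The gene of the Hsp70 partner *Dnajb1* was thus among the steadier genes of this tissue.

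A single WT mouse held many of the highest values. M16_1 was the highest of the 12 mice for 6 of the 10 genes, *Hspa1a*, *Hspa1b*, *Hspa8*, *Hsp90aa1*, *Dnajb1* and *Ddit3*, and for 3.65% of all genes tested. Its excess over the mean of the other 5 WT mice was 6.78-fold for *Hspa1a* and 3.92-fold for *Hspa1b*. That excess was 1.62-fold for *Ddit3*, 1.26-fold for *Hspa8*, 1.15-fold for *Hsp90aa1* and 1.12-fold for *Dnajb1*. Against the second highest mouse, M16_1 stood 3.92-fold higher for *Hspa1a*, 2.22-fold for *Hspa1b* and 1.33-fold for *Ddit3*. For *Hspa8*, *Dnajb1* and *Hsp90aa1*, M16_1 was only 1.12-fold, 1.06-fold and 1.002-fold above the second mouse. Among 41 further cytosolic heat shock and co-chaperone genes it was highest for 8, which included the autophagy receptor *Sqstm1* (447.4 CPM, at most 389.2 CPM in the others), the polyubiquitin gene *Ubb* (498.9 CPM, at most 475.2 CPM), the Hsp70 exchange factor *Bag1* (216.5 CPM, at most 188.7 CPM) and the Hsp90 activator *Ahsa1* (77.1 CPM, at most 74.9 CPM). It was not highest for *Hsph1* (78.8 CPM, at most 91.0 CPM in the others) or *Bag3* (32.8 CPM, at most 54.4 CPM), which are also known Hsf1 targets, nor for any of 29 ER genes or 11 immediate early genes. These 8 genes and the last 2 were chosen after their values were seen.

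WT mouse M17_1 stood at the other end for *Hspa1a*, *Hspa1b* and *Hspb1* and was the highest mouse for *Hsp90b1*. It was lowest for 21.7% of all genes tested, for 16 of the 41 cytosolic genes and for 9 of the 11 immediate early genes, which are switched on within minutes of a stimulus. Its *Fos* value was 13.6 CPM, where the other WT mice reached 118.9 CPM and the APC Min/+ mice lay between 49.4 and 130.1 CPM.

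How far the genes moved together across mice was tested for 11 pairs on log2(CPM + 0.5), with permutation tests of 100000 resamples and Benjamini-Hochberg adjustment over the 11 pairs. *Hspa1a* and *Hspa1b* followed each other most closely, with r = 0.97 (permutation p = 1e-05, the smallest the resamples can give, adjusted p = 0.00011, n = 12) and rho = 0.93 (permutation p = 6e-05, adjusted p = 0.00066). The correlation was 0.95 within the APC Min/+ mice, 0.99 within the WT mice and 0.95 without M16_1 and M17_1. The 2 transcripts share much of their sequence, and the part of shared reads in this correlation was not tested.

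The other Hsf1 targets did not follow *Hspa1a* beyond what the test could show. For *Hspa1a* and *Hspb1*, r was 0.48 (permutation p = 0.126, adjusted p = 0.232, n = 12) with rho = 0.27 (permutation p = 0.392, adjusted p = 0.616), and r was -0.22 within the APC Min/+ mice and 0.74 within the WT mice. This pair rested on single mice, with r = 0.70 without M16_1 (permutation p = 0.0318, adjusted p = 0.0699), 0.02 without M17_1 and 0.16 without both. For *Hspa1a* and *Dnajb1*, r was 0.43 (permutation p = 0.161, adjusted p = 0.254) with rho = 0.50 (permutation p = 0.0991, adjusted p = 0.182), and r was 0.11 without M16_1, 0.58 without M17_1 and 0.37 without both. For *Hspa1a* and the constitutive *Hspa8*, r was 0.23 (permutation p = 0.493, adjusted p = 0.602) with rho = 0.10 (permutation p = 0.749, adjusted p = 0.990), and r was -0.40 without M16_1 and -0.10 without both mice. For *Hspa1a* and *Hsp90aa1*, r was 0.01 (permutation p = 0.982, adjusted p = 0.982) with rho = -0.04 (permutation p = 0.902, adjusted p = 0.990), and for *Hspa1a* and the ER gene *Hspa5* it was 0.09 (permutation p = 0.798, adjusted p = 0.878) with rho = -0.01 (permutation p = 0.990, adjusted p = 0.990). These became -0.26 and -0.15 without M16_1 and M17_1.

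*Hspa1a* was also set against *Fos*, an immediate early gene that many stimuli induce. Here r was 0.58 (permutation p = 0.0839, adjusted p = 0.185, n = 12) and rho was 0.55 (permutation p = 0.0702, adjusted p = 0.154). Within the APC Min/+ mice r was 0.88 and within the WT mice 0.63. In M16_1, *Fos* was at 75.5 CPM, rank 7 of the 12 mice, while *Hspa1a* was highest. Without M16_1 the r of *Hspa1a* and *Fos* was 0.87 (adjusted permutation p = 0.0168), without M17_1 it was 0.21, and without both mice it was 0.61.

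The ER genes moved together in part. *Hspa5* and *Ddit3* had r = 0.69 (permutation p = 0.0119, adjusted p = 0.0448, n = 12) and rho = 0.80 (permutation p = 0.00233, adjusted p = 0.0128). The r was 0.82 within the APC Min/+ mice, 0.58 within the WT mice and 0.71 without M18_b and M13_1, the 2 mice farthest from the median of *Hspa5*. *Hspa5* and *Hsp90b1* had r = 0.54 (permutation p = 0.0704, adjusted p = 0.185) and rho = 0.66 (permutation p = 0.0222, adjusted p = 0.0610). The r of this pair was 0.72 without M18_b and M13_1, 0.79 without M10_2 and M13_1 (permutation p = 0.00945, adjusted p = 0.0520) and 0.35 without TMM factors. It had r = 0.83 within the WT mice and 0.0014 within the APC Min/+ mice, a difference that was not tested. *Hspa5* was also correlated with *Jchain*, the joining chain of secreted IgA made by plasma cells, with r = 0.70 (permutation p = 0.0122, adjusted p = 0.0448) and rho = 0.77 (permutation p = 0.00487, adjusted p = 0.0179). The r was 0.73 and 0.56 within the genotypes and 0.69 without M18_b and M13_1. Without M10_2 and M13_1, whose summed level of 6 plasma cell markers was 432.1 and 208.1 CPM in a range up to 3116 CPM, the r of *Hspa5* was 0.55 with *Ddit3* and 0.53 with *Jchain*, and neither adjusted p (0.162 and 0.164, permutation tests) was under 0.05.

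*Hspb1* is abundant in muscle as well as in epithelium. Its r with *Myh11*, the smooth muscle myosin, was 0.26 (permutation p = 0.433, adjusted p = 0.596, n = 12) with rho = -0.04 (permutation p = 0.904, adjusted p = 0.990), and r was -0.40 without M17_1 and -0.30 without M17_1 and M13_1.

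**Figure D4:**
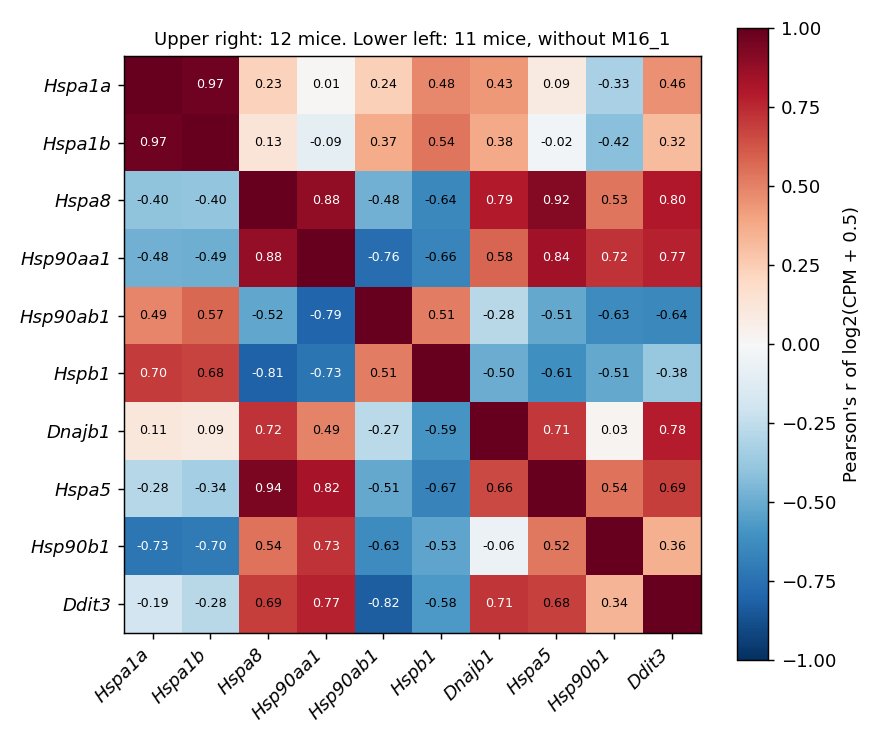
Pearson's r of log2(CPM + 0.5) between the 10 genes across mice, from -1 (blue) to 1 (red), over all 12 mice in the upper right and without M16_1 in the lower left. *Hspa1a* and *Hspa1b* stand at 0.97 in both corners, *Hspa8*, *Hsp90aa1*, *Hspa5* and *Ddit3* form a block between 0.69 and 0.92 over all mice, and *Hspb1* and *Hsp90ab1* are negative with that block.

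Described over all pairs, with no test, the 10 genes fell into more than 1 pattern. *Hspa8* had r = 0.92 with *Hspa5*, 0.88 with *Hsp90aa1*, 0.80 with *Ddit3* and 0.79 with *Dnajb1*. *Hsp90ab1* went against its paralog *Hsp90aa1* with r = -0.76, and against *Ddit3* with -0.64. *Hspb1* had r = -0.64 with *Hspa8* and -0.61 with *Hspa5*, and these were -0.81 and -0.67 without M16_1. The r of *Hspa1a* with *Hsp90b1* was -0.33 over all mice and -0.73 without M16_1. All these values share the same 12 libraries and their scaling.

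Among the 14897 genes with a mean of at least 1 CPM, the 8 most like *Hspa1a* over the 12 mice were *Hspa1b* (r = 0.97), *Slc3a2* (0.86), *Rhov* (0.84), *Tk2* (0.83), *Phf10* (0.83), *Ptges3-ps* (0.83), *Tyw1* (0.82) and *Rad23b* (0.80). For all 8, M16_1 was the highest mouse, which the choice by r favours, since M16_1 stood far above the others for *Hspa1a*. The rho of the 8 with *Hspa1a* ran from 0.31 for *Tyw1* to 0.93 for *Hspa1b*. Their r without M16_1 ran from 0.67 for *Tyw1* to 0.97 for *Hspa1b*. *Slc3a2*, the shared chain of several amino acid carriers, stood at 64.8 CPM in M16_1 and at no more than 52.3 CPM in the others. The 8 most like *Hspa5* were *Rexo4* (0.95), *Gatc* (0.93), *Sec23b* (0.93), *Hspa8* (0.92), *Pdia4* (0.91), *Afg1l* (0.91), *Zfp418* (0.90) and *Gtf2h1* (0.89). *Sec23b* is a coat protein of vesicles that leave the ER, and *Pdia4* is a disulphide isomerase of the ER. Of the other ER member, *Hsp90b1*, the likeness with *Hspa5* ranked 2403.

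The wider chaperone pathways are given beside all genes tested, of which 0 were called and 3.46% and 1.81% had an unadjusted p under 0.05 in the higher and lower direction. The log2 fold change was positive for 9837 of all genes tested and negative for 10474. Of 41 tested cytosolic heat shock and co-chaperone genes, out of 42 listed, 0 were called, 2 had an unadjusted p under 0.05 with the APC Min/+ group higher and 2 with it lower, and the median log2 fold change was -0.06, which was 0.02 without M10_2 and M13_1. The 4 genes were *Hspa12a*, a distant Hsp70 relative (0.44, SE 0.19), *Serpinh1*, the collagen chaperone (0.37, SE 0.17), *Hsph1*, the exchange factor of Hsp70 (-0.42, SE 0.19), and *Ahsa2*, an activator of Hsp90 (-0.37, SE 0.13), with unadjusted p-values of 0.0380, 0.0476, 0.0429 and 0.0107 in the edgeR fit. *Hsph1* had between 39.4 and 84.2 CPM in the APC Min/+ mice and between 73.2 and 91.0 CPM in the WT mice, with M13_1 lowest, and its log2 fold change was -0.21 without M10_2 and M13_1. That of *Hspa12a* was 0.10 without them. *Serpinh1* stood in this list although its protein resides in the ER. *Fkbp5*, an Hsp90 cochaperone induced by glucocorticoids, had the largest difference in size, -0.52 (SE 0.36), which was -0.25 without M10_2 and M13_1. Its range was 85.4 to 284.7 CPM in the APC Min/+ mice and 117.9 to 380.5 CPM in the WT mice. Of the 41 log2 fold changes of this list, 14 were positive and 27 negative. Without M10_2, M13_1 and M16_1, 26 were positive and 15 negative.

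The list of 29 genes for ER chaperones and the unfolded protein response did not include *Serpinh1*. Of these 29 genes, 0 had an unadjusted p under 0.05 in either direction and the lowest FDR was 0.908. Their median log2 fold change was -0.05, with 20 negative and 9 positive values, and -0.07 without M10_2 and M13_1. The 3 largest in size were those of *Derl3* (-0.85, SE 0.42), which is abundant in plasma cells, the stress sensor *Ern1* (0.35, SE 0.20) and the J-domain gene *Dnajc10* (-0.20, SE 0.15). *Ern1* was highest in M10_2, and its value was 0.10 without M10_2 and M13_1. Of 14 genes of the PERK arm and the integrated stress response, to which *Ddit3* belongs, 1 had an unadjusted p under 0.05. This was *Vldlr*, a lipoprotein receptor, with -0.37 (SE 0.12, FDR = 0.908 in the edgeR quasi-likelihood fit), and the median was -0.16, or 0.02 without M10_2 and M13_1. *Nupr1*, a stress cofactor of chromatin, had the largest value in size, -0.91 (SE 0.52), which was -0.50 without M10_2 and M13_1. WT mouse M17_1 was highest for it, at 715.7 CPM, and M13_1 lowest, at 42.2 CPM. *Ddit4*, an inhibitor of mTORC1, had 0.47 (SE 0.29), which was 0.07 without M10_2 and M13_1.

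The 11 immediate early genes had a median log2 fold change of 0.30, with 10 positive values and 1 negative, and of 0.54 without M10_2 and M13_1, but 0 of them had an unadjusted p under 0.05. The largest were *Nr4a1* (0.94, SE 0.45), *Egr1* (0.47, SE 0.38) and *Junb* (0.42, SE 0.29), and M17_1 was the lowest mouse for all 3.

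**Figure D5:**
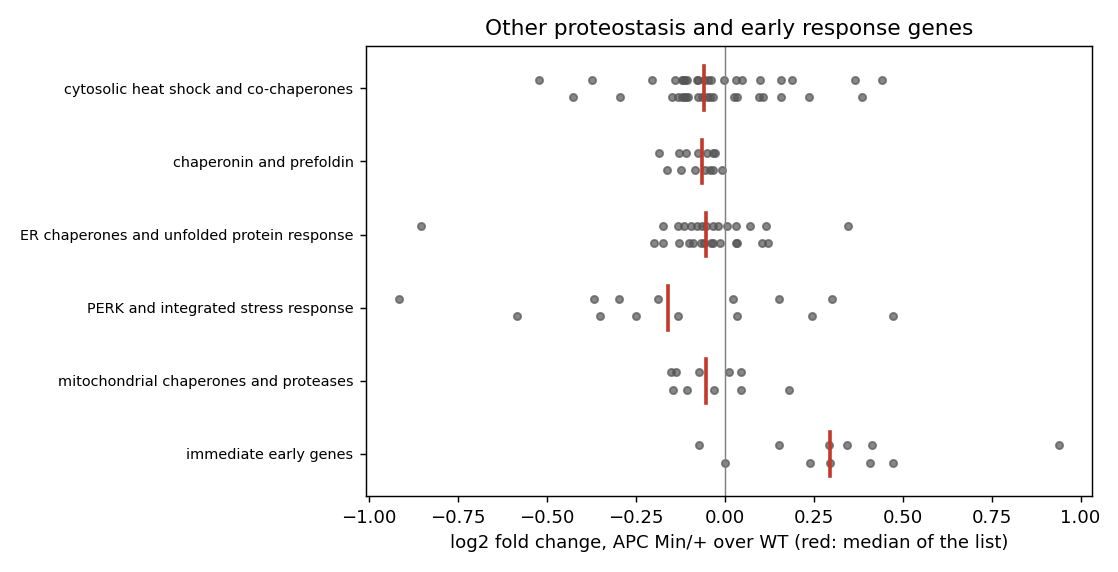
Log2 fold change of APC Min/+ over WT in edgeR's quasi-likelihood fit for each gene of 6 lists of other proteostasis and early response genes, with 1 point per gene and a red line at the median of the list. Over all 12 mice the medians lie between -0.16 and -0.05 for the 5 chaperone and stress lists and at 0.30 for the immediate early genes.

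Several of the 10 genes share sequence with others, which bears on how their counts can be read. Of the 100-base windows of the transcript of *Hspa1a*, 56.5% were also found in transcripts of other genes (47.1% in *Hspa1b*), and the share was 49.9% for *Hspa1b*. It was 63.4% for *Hspa8*, 47.5% for *Hsp90aa1* and 42.7% for *Hspb1*, mostly in the pseudogenes *Gm15459*, *Gm12346* and *Hsp25-ps1*. It was 7.63% for *Hsp90b1* (6.38% in *1810014B01Rik*, which overlaps it on the opposite strand) and 0% for *Hsp90ab1*, *Dnajb1*, *Hspa5* and *Ddit3*. Both strands were searched, so that genes overlapping a member at its own place in the genome count in these shares. How the authors treated reads that fit several places is not stated, so the split of counts between *Hspa1a* and *Hspa1b* is uncertain, and so are the levels of *Hspa8*, *Hsp90aa1* and *Hspb1*. On the opposite strand, the exons of *Hspa1a* overlap *Gm20481* over 564 bp and those of *Hsp90b1* overlap *1810014B01Rik* over 415 bp. Those of *Ddit3* overlap *Mars* over 68 bp and *Gm4189* over 13 bp, also on the opposite strand. Without a stated strand setting, reads from these partners cannot be told apart. On the same strand, *Hspa8* overlaps *Snord14c*, *Snord14d* and *Snord14e*, and *Hsp90b1* overlaps *Gm15344* and *Gm25745*. A strand setting would not separate the latter.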

How the data were processed

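Paired-end RNA-Seq was carried out on proximal colon from 6 mice of each genotype. Alignment by the authors used STAR 2.3.0 and the GRCm38 genome, and reads were counted per gene with featureCounts. The submitters' processing notes name the build GRCm38.p2. Strandedness, the gene annotation and the handling of multi-mapping reads are not given in the sources used here. The authors deposited unnormalized counts, 1 table per mouse, beside an exonic length per gene, which was used here for RPKM. Mice were grouped by the genotype in the labels, which number no pairs.

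Symbols and coordinates came from GENCODE M21 (same build), and promoters from RefSeq (GRCm38.p6). Genes that reached 10 counts in 3 or more mice were compared with edgeR 4.0.16 (TMM factors between 0.906 and 1.10, glmQLFit and glmQLFTest, no covariate, Benjamini-Hochberg adjustment over all genes tested, called at an FDR under 0.05 and a 2-fold change). The standard error is the log2 fold change divided by the square root of F. CPM and RPKM were scaled by the TMM factors. The fits were tested on simulated data. DESeq2 1.42.0, other scalings and filters, and fits without single mice were run as alternatives. Correlations used log2(CPM + 0.5).

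The 10 genes and all gene lists were chosen with earlier results of these data known. The genes named are the 10, those of each list with an unadjusted p under 0.05 or among the 3 largest log2 fold changes in size at a mean of at least 1 CPM, the 8 most like *Hspa1a* and *Hspa5*, and those of the 11 pairs. *Hspa14* was not matched. Nothing says that the libraries came from anything but 1 sample per mouse. The p-values of the genotype comparison set the difference between genotypes against the spread between mice. Mice were housed in groups by genotype and their cages are not given, so that these p-values do not cover the spread between cages.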

Additional observations from a re-analysis of the deposited data

Results flagged for a closer look

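A value was marked where 1 mouse of a group of 6 lay so far from its nearest neighbour that the gap, divided by the group's range, exceeded Dixon's critical value for 6 samples. This was examined in 30 groups of 6, and for normally distributed values chance marks about 1 group in 20. The gaps were taken on CPM or percent and not on the log2 scale, and the rate for such values was not determined. On the log2 scale a gap at the high end is a smaller part of the range, and the marks were not examined there. The marks are not independent of each other, since 5 of the 6 belong to the same mouse and 4 of these to the same pair of genes.

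In WT mouse M16_1, *Hspa1a* was at 56.1 CPM, with the nearest WT mouse at 14.3 CPM. *Hspa1b* was at 67.2 CPM in the same mouse and 28.7 CPM in the nearest. Their sum was 123.4 CPM, with 43.0 CPM in the nearest. *Hspa1a* made up 45.5% of that sum in M16_1 and 34.0% in the nearest WT mouse. *Ddit3* was at 26.6 CPM in M16_1, with 17.8 CPM in the nearest. In APC Min/+ mouse M2_A, *Jchain* was at 747.9 CPM, with 164.6 CPM in the nearest APC Min/+ mouse, and the same mouse had the highest *Hspa5* and *Ddit3* values of its genotype. The causes of these values were not tested.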

How the results depend on the processing

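Each mouse was left out in turn, and the number of genes called stayed at 0 in all 12 fits. It was 33 with DESeq2 and 15 with edgeR's likelihood ratio test, and 0 in the other fits. For DESeq2 and the likelihood ratio test the cause was not tested. In the 12 fits the log2 fold change ran from -1.03 to 0.18 for *Hspa1a* and from -0.57 to 0.22 for *Hspa1b*, both positive only without M16_1, from 0.25 to 0.53 for *Hspb1* and from -0.36 to -0.23 for *Hspa8*, with unadjusted p-values in the edgeR fits between 0.0118 and 0.0906. Without M10_2 and M13_1 the log2 fold change of *Hsp90ab1* was -0.025. Without these and M16_1, a fit chosen after seeing the data, it was 0.28 for *Hspa1a*, 0.26 for *Hspa1b*, -0.024 for *Hsp90ab1*, 0.0027 for *Dnajb1* and 0.11 for *Ddit3*. The other 210 values of the genotype comparison kept their direction and call, and all 20 SDs between mice, with other scaling or without M10_2 and M13_1, stayed within 1.5 times those given.

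Of the correlations across mice, that of *Hspa1a* with *Hspa1b* stayed between 0.96 and 0.98 when 1 mouse was left out. That of *Hspa5* with *Ddit3* stayed between 0.62 and 0.76 and that of *Hspa5* with *Jchain* between 0.59 and 0.77, but their adjusted p was above 0.05 in 9 of the 12 fits, without M10_2 and M13_1 (r = 0.55 and 0.53), without TMM factors (0.54 and 0.69) and without M16_1 and M17_1 (0.67 and 0.65, chosen after seeing the data). That of *Hspa5* with *Hsp90b1* ran from 0.47 to 0.72. The r ran from 0.21 to 0.87 for *Hspa1a* with *Fos*, from 0.02 to 0.70 with *Hspb1*, from 0.11 to 0.58 with *Dnajb1*, from -0.40 to 0.52 with *Hspa8*, from -0.48 to 0.28 with *Hsp90aa1*, from -0.28 to 0.25 with *Hspa5*, and from -0.40 to 0.43 for *Hspb1* with *Myh11*. *Hspa1a* with *Hsp90aa1* had -0.024 without TMM factors, -0.0077 with a pseudocount of 0.1 and -0.054 without M10_2 and M13_1. Without M16_1 and M17_1, r was -0.10 with *Hspa8*, -0.26 with *Hsp90aa1*, -0.15 with *Hspa5* and -0.41 for *Hspb1* with *Myh11*. No paired analysis was possible because the labels give no replicate numbers, and those used were given in accession order. Mouse names carry a suffix of unstated meaning, which was coded as 1, 2 or a letter, with M18_2a and M18_2b coded as 2. With it as a covariate 0 genes were called and *Hspa8* had a log2 fold change of -0.29 (unadjusted p = 0.0577 in the edgeR fit). With 6 mice per genotype the SE of *Hspa1a* was 0.59 on the log2 scale, so that a 2-fold difference was less than 2 SE.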

Other observations

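In M16_1, 2 further genes of the integrated stress response were highest among the 12 mice beside *Ddit3*, and both were chosen after their values were seen. *Trib3*, a pseudokinase induced by Atf4 and Chop, was at 2.08 CPM and at no more than 1.01 CPM in the other mice. *Chac1*, which degrades glutathione and is induced by the same pathway, was at 1.52 CPM and at no more than 0.64 CPM. M16_1 was the highest mouse for no other gene of the 14 listed.

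The chaperonin, which folds actin and tubulin, and its partner prefoldin were measured by 14 genes. All 14 log2 fold changes were negative, between -0.18 for *Cct3* and -0.0064, with a median of -0.07, and 0 of 14 had an unadjusted p under 0.05. Of all 20311 genes tested, 10474 were negative. *Pfdn5* had -0.16 and *Tcp1* -0.13. Without M10_2 and M13_1, 9 values were negative and 5 positive, with -0.07 for *Cct3*, -0.13 for *Pfdn5* and -0.06 for *Tcp1*, and without M16_1 as well 6 were negative and 8 positive. The 14 genes share the mice and the scaling.

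Of 10 genes for mitochondrial chaperones and proteases, 0 had an unadjusted p under 0.05, and the median log2 fold change was -0.05, or 0.04 without M10_2 and M13_1. The largest in size were those of the protease *Lonp1* (0.18), the chaperonin partner *Hspe1* (-0.15) and *Grpel1*, the exchange factor of the mitochondrial Hsp70 (-0.15). Without M10_2 and M13_1 the last 2 were -0.0034 and -0.0042. Over all mice 4 of the 10 values were positive and 6 negative, and without M10_2, M13_1 and M16_1 all 10 were positive, with a median of 0.06.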
